A study of Mus musculus with 15 samples.

Results

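The miR-17, miR-18 and miR-19 seed families were followed in mouse epiblast stem cells (EpiSC) that were differentiated toward dopaminergic neurons or grown without the inducing morphogens. The families were taken by name, as the guide strands of the miR-17-92 cluster and its paralog clusters without the miR-92 seed. This gave 10 mature miRNAs, of which 9 had spots under their own name on the arrays and all 9 were tested, among 306 tested of 1122 mouse miRNAs. mmu-miR-106a-5p was not analysed here. Every array held RNA of EpiSC derived from Pitx3-GFP mice, in which a fluorescent reporter marks the gene of a transcription factor of midbrain dopaminergic neurons. The 5 groups, of 3 arrays each, were EpiSC at day 5 before morphogens, cells given SHH and FGF8 from day 5 and collected at day 9 or day 14 (treated), and cells grown without these morphogens to day 9 or day 14 (control). SHH and FGF8 are secreted factors that pattern the ventral midbrain. The labels do not say whether the 3 samples of a group were separate cultures, so p-values measure the spread between these samples, which may be technical. These are whole cultures, so fewer cells that express a miRNA and less of it per cell cannot be told apart.

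These miRNAs are cut from 3 polycistronic transcripts, and each acts by pairing its seed, bases 2 to 8, with messenger RNAs. The clusters are driven by Myc and E2F factors in dividing cells. Targets of the miR-17 seed include the cell cycle inhibitor Cdkn1a. In the nervous system the miR-17-92 cluster is known for supporting the expansion of progenitors.

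In the RefSeq annotation of GRCm38.p6 the miR-17-92 cluster has 6 hairpins on the plus strand at chr14:115043671-115044506. Its members described here are miR-17-5p at chr14:115043684-115043706, miR-18a-5p at chr14:115043867-115043889, miR-19a-3p at chr14:115044048-115044070, miR-20a-5p at chr14:115044183-115044205 and a copy of miR-19b-3p at chr14:115044358-115044380. The miR-106a-363 cluster has 6 hairpins on the minus strand at chrX:52741693-52742567. It holds miR-106a-5p at chrX:52742541-52742563, miR-18b-5p at chrX:52742381-52742403, miR-20b-5p at chrX:52742159-52742181 and the second copy of miR-19b-3p at chrX:52741991-52742013. The miR-106b-25 cluster has 3 hairpins on the minus strand at chr5:138165321-138165818, inside the gene span of Mcm7, a subunit of the replicative helicase (chr5:138164583-138172111). It holds miR-106b-5p at chr5:138165787-138165807 and miR-93-5p at chr5:138165574-138165596. No other gene of the RefSeq table spans the first 2 clusters.

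All 10 mature sequences, from RefSeq with GRCm38.p6, are shown 5′ to 3′ because the members of a family share a seed and several differ by few bases elsewhere. Capitals mark the seed.
miR-17-5p: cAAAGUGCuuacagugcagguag
miR-20a-5p: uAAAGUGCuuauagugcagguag
miR-20b-5p: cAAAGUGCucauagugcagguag
miR-106a-5p: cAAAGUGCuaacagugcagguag
miR-106b-5p: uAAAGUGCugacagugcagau
miR-93-5p: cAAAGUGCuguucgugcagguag
miR-18a-5p: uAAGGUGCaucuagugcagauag
miR-18b-5p: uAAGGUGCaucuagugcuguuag
miR-19a-3p: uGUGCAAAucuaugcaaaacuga
miR-19b-3p: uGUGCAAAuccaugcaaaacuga

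The seed AAAGUGC was shared by 6 members, AAGGUGC by 2 and GUGCAAA by 2. Counted from the 5′ end, miR-17-5p and miR-20a-5p differed by C1U and C12U, miR-17-5p and miR-20b-5p by U10C and C12U, and miR-17-5p and miR-106a-5p by U10A alone. miR-19a-3p and miR-19b-3p differed by U11C alone, and miR-18a-5p and miR-18b-5p by A18U and A20U. The files do not give the probe sequences, so how far near-identical members share signal was not tested. The pluripotency miRNAs miR-302d-3p and miR-294-3p carry a related seed, shown for comparison with their bases 2 to 8 in capitals.
miR-302d-3p: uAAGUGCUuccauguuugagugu
miR-294-3p: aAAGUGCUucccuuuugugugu
Their seed AAGUGCU was also found 1 base further in, at bases 3 to 9, in 6 of the 10 members, which are the members of the miR-17 seed family.

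Levels below are log2 scaled signals: each array's background-subtracted signal was divided by its 75th percentile over probes detected everywhere, so 0 is that percentile and a difference of 1 is a doubling. The lowest level that can be told apart is the floor of -4.27. Probes differ in brightness, so levels are compared within a miRNA and never between miRNAs. The scaling percentile ranged from 149 to 337 intensity units over the 15 arrays, 238 to 333 mouse miRNAs were above background on an array, and 0 spots of these were saturated. Arrays of a group correlated with r from 0.980 to 0.998 over the tested miRNAs. The arrays lay on 2 slides. Slide 1 held day 5, treated day 9 and treated day 14 replicates 1 and 2, and slide 2 held treated day 14 replicate 3 and all control arrays. Treated day 14 alone lay on both slides. With slide as a block, the slide effect is therefore taken from its replicate 3 against its replicates 1 and 2. Day 5 replicate 3 was the lowest day 5 array for all 9 members.

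The families fell during differentiation in both arms. Between day 5 and day 14 all 9 members fell in treated cells and all 9 in control cells, against a background of 24.8% and 34.3% of the 306 miRNAs called lower in the same comparisons (limma, Benjamini-Hochberg adjusted p below 0.05). The median difference of the members was -2.30 in both arms, where that over all tested miRNAs was 0.24 in treated and -0.02 in control cells. The arms share the day 5 arrays, so their falls from day 5 are not independent of each other. Day 5 was the only group in which miR-18b-5p was detected on every array, so it entered the tests through that group. Its fall from day 5 was therefore favoured by the filter for detection and adds no support to these counts. Day 5 did not overlap with day 14 for any of the 9 members in either arm, while 68.0% (treated) and 65.0% (control) of all tested miRNAs were also without overlap.

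**Figure D1:**
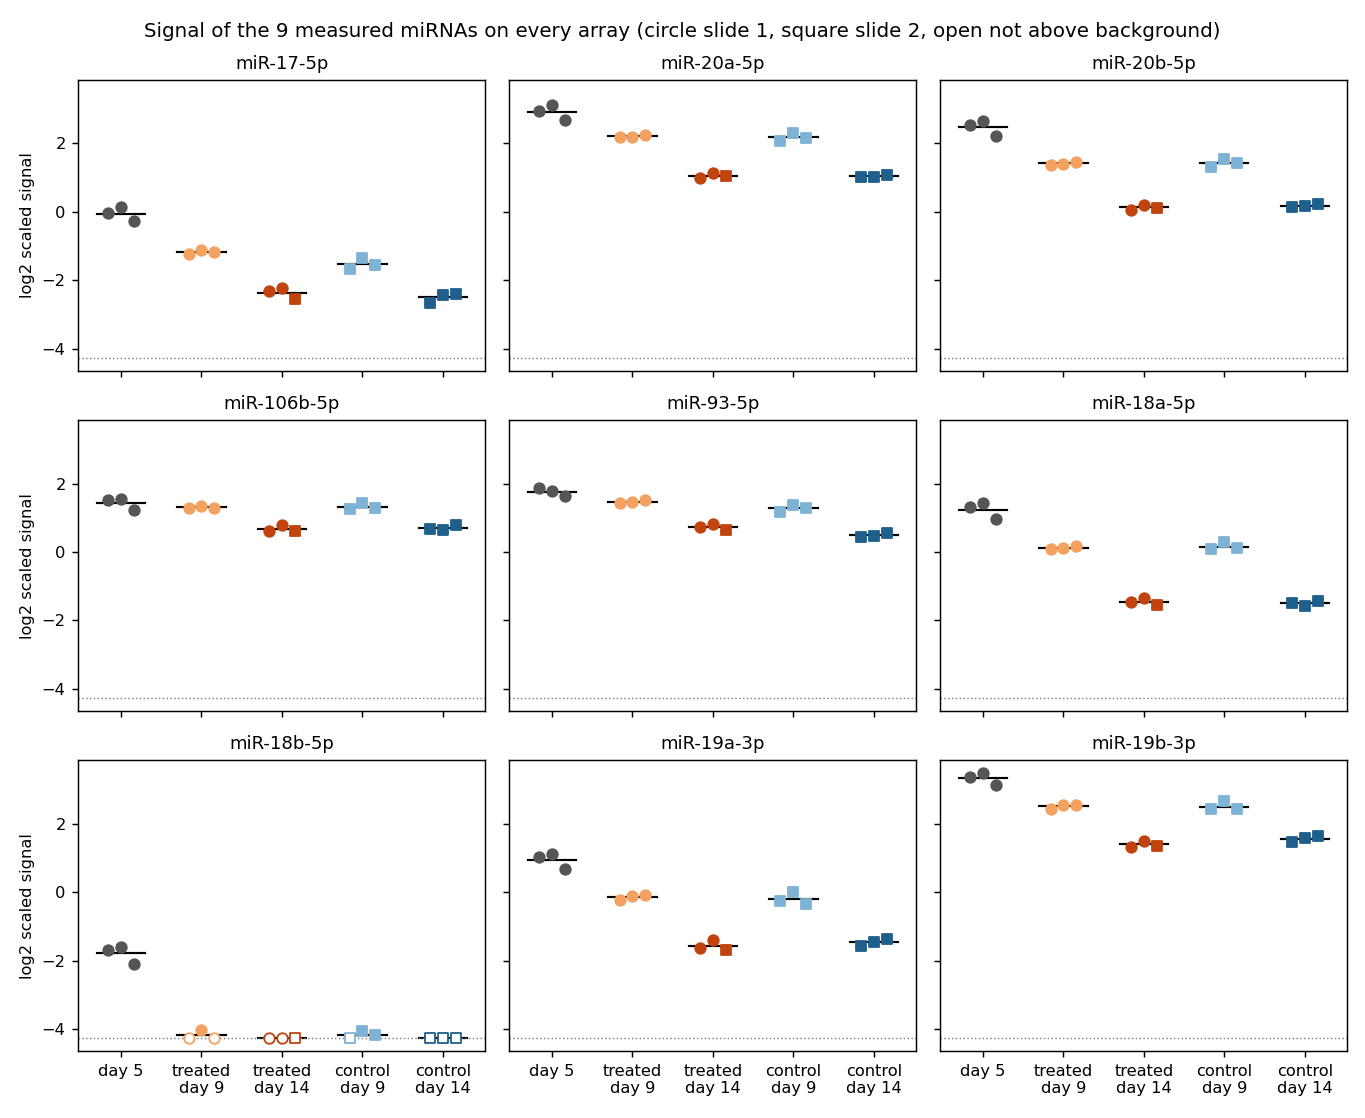
Log2 scaled signal (y axis) of the 9 members on each of the 15 arrays by group (circles slide 1, squares slide 2, open symbols not above background), with bars for group means and a dotted line at the floor of -4.27. Day 5 is above day 14 for each member in both arms, and miR-18b-5p is at the floor on all 6 day 14 arrays.

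Within the miR-17 seed family, mmu-miR-17-5p, the namesake of the main cluster, was at -0.05, 0.14 and -0.27 at day 5, at -1.22, -1.11 and -1.17 in treated and -1.69, -1.35 and -1.54 in control cells at day 9, and at -2.32, -2.22 and -2.55 in treated and -2.65, -2.45 and -2.41 in control cells at day 14. The 3 days were separate in both arms, and treated lay above control at day 9 only. By day 14 it had changed by -2.30 (SE 0.12) in treated and -2.45 (SE 0.12) in control cells, which left 20.3% and 18.4% of the day 5 signal.

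mmu-miR-20a-5p, from the same transcript, was at 2.95, 3.12 and 2.68 at day 5, at 2.18, 2.19 and 2.26 (treated) and 2.06, 2.32 and 2.17 (control) at day 9, and at 0.98, 1.13 and 1.05 (treated) and 1.03, 1.01 and 1.09 (control) at day 14. The arms overlapped at each day and the days did not. It changed by -1.86 (SE 0.10) in treated and -1.88 (SE 0.10) in control cells over the course, and the later step was the larger one in the means of both arms, -1.15 against -0.71 in treated and -1.14 against -0.74 in control cells. The difference between steps was not tested.

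mmu-miR-20b-5p, the counterpart from the X-linked cluster, was at 2.53, 2.65 and 2.23 at day 5, at 1.37, 1.41 and 1.46 (treated) and 1.30, 1.54 and 1.44 (control) at day 9, and at 0.06, 0.21 and 0.12 (treated) and 0.13, 0.16 and 0.24 (control) at day 14. As with miR-20a-5p, the days were separate and the arms overlapped. Its fall to day 14 was 5.07-fold in treated and 4.91-fold in control cells.

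Both members from the Mcm7 locus changed less than the other members. This holds for these guide strands and not for every strand of the locus. Over the full course miR-106b-3p changed by -1.84 in treated and -2.20 in control cells, and miR-25-3p by -1.19 and -1.41. mmu-miR-106b-5p was at 1.53, 1.55 and 1.23 at day 5, at 1.29, 1.36 and 1.29 (treated) and 1.25, 1.44 and 1.29 (control) at day 9, and at 0.63, 0.78 and 0.60 (treated) and 0.66, 0.66 and 0.79 (control) at day 14. Day 5 and day 9 overlapped because day 5 replicate 3 lay below the day 9 arrays, and day 14 was below every earlier array. From day 5 to day 9 it differed by -0.12 (SE 0.09, limma adjusted p = 0.262) in treated and -0.11 (SE 0.09, adjusted p = 0.327) in control cells. Without day 5 replicate 3 those steps were -0.23 (adjusted p = 0.0138) and -0.20 (adjusted p = 0.0288), so this array decides whether the first step is called. From day 9 to day 14 it changed by -0.64 in treated and -0.62 in control cells (SE 0.09), and 58.8% and 60.2% of the day 5 signal was left.

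mmu-miR-93-5p was at 1.86, 1.79 and 1.63 at day 5, at 1.43, 1.46 and 1.53 (treated) and 1.16, 1.39 and 1.30 (control) at day 9, and at 0.73, 0.81 and 0.63 (treated) and 0.43, 0.48 and 0.55 (control) at day 14. The days were separate in both arms, and treated lay above control at both days. It changed by -1.04 (SE 0.08) in treated and by -1.27 (SE 0.08) in control cells, which left 48.7% and 41.3%.

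The miR-18 seed family held the largest fitted fall of the 9 members in each arm. mmu-miR-18a-5p was at 1.33, 1.45 and 0.95 at day 5, at 0.09, 0.11 and 0.17 (treated) and 0.09, 0.29 and 0.11 (control) at day 9, and at -1.47, -1.36 and -1.55 (treated) and -1.49, -1.57 and -1.44 (control) at day 14. No array of a day reached the range of another day, and the arms overlapped at both days. The fall was 6.51-fold in treated and 6.70-fold in control cells, ranks 5 and 7 from the lowest difference of the 306 miRNAs. From day 9 to day 14 in control cells, a step whose arrays all lay on slide 2, its difference of -1.66 (SE 0.11) was the lowest of all 306.

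mmu-miR-18b-5p, from the X-linked cluster, was at -1.68, -1.59 and -2.10 at day 5. At day 9 it was at -4.27, -4.02 and -4.27 in treated and at -4.27, -4.06 and -4.18 in control cells, and on all 6 day 14 arrays it was at the floor. It was above background on all 3 day 5 arrays, on 1 treated and 2 control arrays at day 9, and on 0 at day 14. The fall to day 14 was therefore at least 5.58-fold in treated and at least 5.39-fold in control cells, computed against the lowest signal that counted as above background on those arrays. The step from day 9 to day 14 had no room left above the floor.

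In the miR-19 seed family, mmu-miR-19a-3p was at 1.04, 1.12 and 0.68 at day 5, at -0.22, -0.10 and -0.09 (treated) and -0.27, -0.01 and -0.34 (control) at day 9, and at -1.63, -1.40 and -1.70 (treated) and -1.57, -1.45 and -1.37 (control) at day 14. Days were separate and arms overlapped. It changed by -2.52 (SE 0.12) in treated and by -2.41 (SE 0.12) in control cells.

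mmu-miR-19b-3p, whose identical copies lie in both the miR-17-92 and the X-linked cluster, was at 3.37, 3.48 and 3.15 at day 5, at 2.44, 2.55 and 2.54 (treated) and 2.43, 2.66 and 2.42 (control) at day 9, and at 1.33, 1.51 and 1.36 (treated) and 1.47, 1.59 and 1.66 (control) at day 14. Its days were separate too, and the array cannot tell the transcripts apart. The fall was 3.82-fold in treated and 3.39-fold in control cells.

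Taken by step, 8 of 9 members fell from day 5 to day 9 in treated cells, where 21.2% of all tested miRNAs were called lower, and 8 of 9 in control cells, where 35.0% were. The member not called was miR-106b-5p in each arm. The 8 include miR-18b-5p, which entered the tests through day 5 alone. From day 9 to day 14, 8 of 9 fell in treated cells (30.7% of all called lower) and 8 of 9 in control cells (22.9%), the exception being miR-18b-5p at the floor. In each of these 4 steps 8 members were without overlap between the days, as were 61.4% and 74.8% of all miRNAs in the treated steps and 58.2% in each control step. The median first step of the members was -1.05 in treated and -1.04 in control cells, and the median second step -1.15 and -0.98.

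The treated first step lay on slide 1 throughout. The control first step crossed slides, and with slide as a block 7 members were still called lower there (median -0.95), without miR-106b-5p and miR-93-5p (-0.34, adjusted p = 0.0893). Over the full course all 9 members were called lower with that block in both arms, with medians of -2.21 in treated and -2.17 in control cells. That block rests on treated day 14 alone, where a slide effect cannot be told from a deviation of replicate 3.

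**Figure D2:**
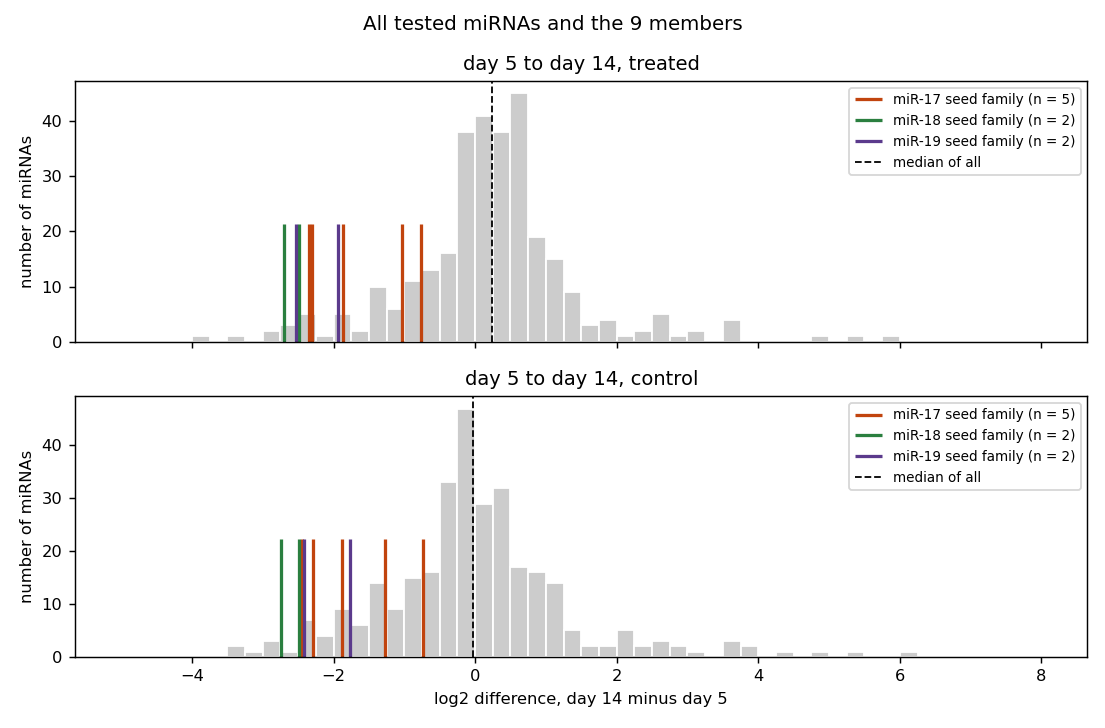
Histograms of the day 14 minus day 5 difference (log2, x axis) over the 306 tested miRNAs (y axis, number of miRNAs) in treated (top) and control cells (bottom), with a coloured line for each of the 9 members and a dashed line for the median of all. Both panels use the same day 5 arrays, and the members lie from -2.70 to -0.77 in treated and from -2.74 to -0.73 in control cells, left of both medians.

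Few members differed between treated and control cells. At day 9, 1 of 9 members was called, as higher in treated than in control cells, where 55.6% of all tested miRNAs were called in either direction. At day 14 again 1 of 9 was called, also as higher, where 53.3% of all were called. The median difference of the members was 0.01 at day 9 and 0.00 at day 14, below the medians over all tested miRNAs of 0.25 and 0.21. miR-18b-5p lay at the floor on every day 14 array, so its difference there was fixed at 0 and could not be called. That value is the day 14 median.

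The member called at day 9 was miR-17-5p, higher in treated cells by 0.36 (SE 0.12, limma adjusted p = 0.021). All 3 treated arrays lay above the control arrays. Its second probe, above background on 11 of the 15 arrays, gave 0.68. The groups lay on different slides. With slide as a block, estimated from treated day 14 replicate 3 against replicates 1 and 2, the difference was 0.08 (adjusted p = 0.851). It was 0.01 with quantile scaling (adjusted p = 0.99), 0.08 with median scaling (adjusted p = 0.715) and 0.23 with normexp background (adjusted p = 0.0764), and the call was lost without a filter (adjusted p = 0.119). Quantile scaling instead called miR-106b-5p lower (-0.24, adjusted p = 0.0249). The call of miR-17-5p also ended without treated day 9 replicate 2 (adjusted p = 0.0652) or 3 (adjusted p = 0.0515) and without control day 9 replicate 1 (adjusted p = 0.0949) or 3 (adjusted p = 0.0529).

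At day 14 the member called was miR-93-5p, higher in treated cells by 0.24 (SE 0.08, limma adjusted p = 0.0249), with no overlap. With slide as a block it was 0.14 (adjusted p = 0.372), and on slide 2 alone, where a single treated array remained, 0.20 (adjusted p = 0.13). It was 0.03 with median scaling (adjusted p = 0.889), 0.04 with total gene signal (adjusted p = 0.781) and 0.06 with quantile scaling (adjusted p = 0.664), and the call ended with normexp background (adjusted p = 0.112), no filter (adjusted p = 0.0775) and the deposited table (adjusted p = 0.065). It was also lost without treated day 14 replicate 1 (adjusted p = 0.0626) or 2 (adjusted p = 0.0969) or control day 14 replicate 1 (adjusted p = 0.0754). At day 9 the same miRNA differed by 0.19 (adjusted p = 0.0581), again without overlap, and it was called there without day 5 replicate 3 (adjusted p = 0.0171) or control day 9 replicate 2 (adjusted p = 0.0343). Treated and control did not overlap for 2 members at day 9 (background 71.2%) and for 1 at day 14 (background 55.9%).

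For the other members the 95% confidence intervals of the treated against control difference lay between -0.27 and 0.37 at day 9 and between -0.38 and 0.40 at day 14. A p that misses the threshold does not show equal levels. The sign of some of these small differences followed the scaling. With the 75th percentile taken over all probes, 7 members were called lower at day 9 and 4 at day 14. These 4 were below 0 at day 14 in the main scaling too. There miR-19a-3p (-0.48 to -0.05) and miR-19b-3p (-0.54 to -0.12) stayed below 0 in all 29 alternatives. The all-probe percentile moved the median over all tested miRNAs from 0.25 to -0.25 at day 9 and from 0.21 to -0.08 at day 14. Under that scaling the calls over all miRNAs at day 9 turned from 124 higher and 46 lower to 41 higher and 121 lower.

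The change of the treatment effect from day 9 to day 14 was called for 0 of 9 members by limma, and the unadjusted p was below 0.05 for 0, where 32.7% of all tested miRNAs were called in either direction. The estimates lay between -0.22 for miR-17-5p and 0.08 for miR-18a-5p.

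**Figure D3:**
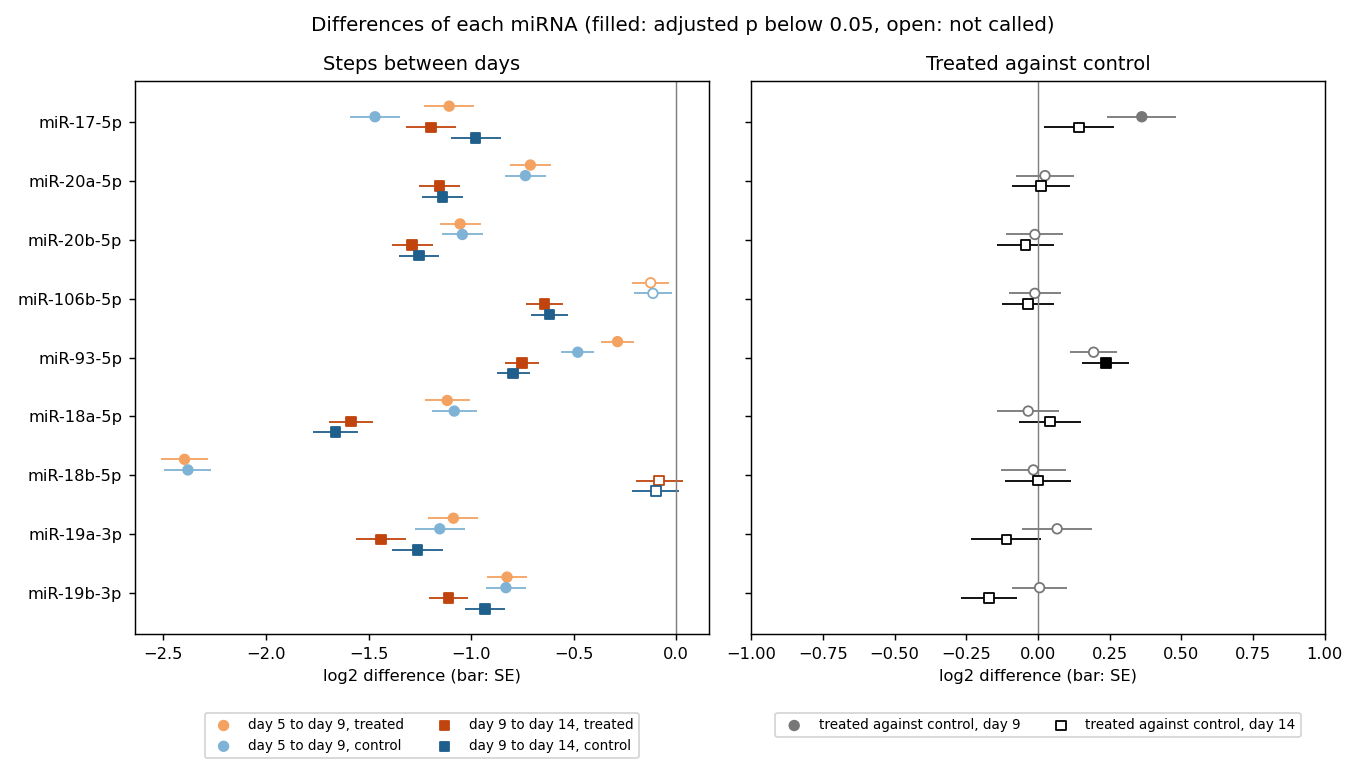
Log2 differences of each member between days (left) and between treated and control cells at the same day (right), with bars for limma's standard error; filled points are called and open points are not. The steps lie left of 0, except that miR-106b-5p (first step) and miR-18b-5p (second step) reach it within their confidence intervals, and on the right miR-17-5p at day 9 and miR-93-5p at day 14 are filled.

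The members moved in parallel but not by equal amounts. Over the 15 arrays the pairwise Pearson correlation of the 8 members above background everywhere ranged from 0.887 to 0.999 (median 0.973), as a description of arrays that share groups. Within an array, the mean of 4 members of miR-17-92 (miR-17-5p, miR-18a-5p, miR-19a-3p and miR-20a-5p) was set against that of miR-106b-5p and miR-93-5p, each member centred on its own mean. This difference was 0.89 ± 0.11 (SD, n = 3) at day 5, 0.09 ± 0.02 in treated and 0.07 ± 0.05 in control cells at day 9, and -0.56 ± 0.02 and -0.48 ± 0.02 at day 14 (n = 3 each). The days did not overlap. Dividing an array by a constant cannot move this value, and no test was made of it. The value covers guide strands alone. Of the other strands, miR-106b-3p changed by -1.84 (treated) and -2.20 (control) over the full course. That was more than miR-17-3p of the miR-17-92 cluster (-1.60 and -1.79). Against miR-20b-5p, the measured member of the X-linked cluster that lies above background everywhere, the same 4 members differed by -0.12 to 0.09 on all 15 arrays.

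**Figure D4:**
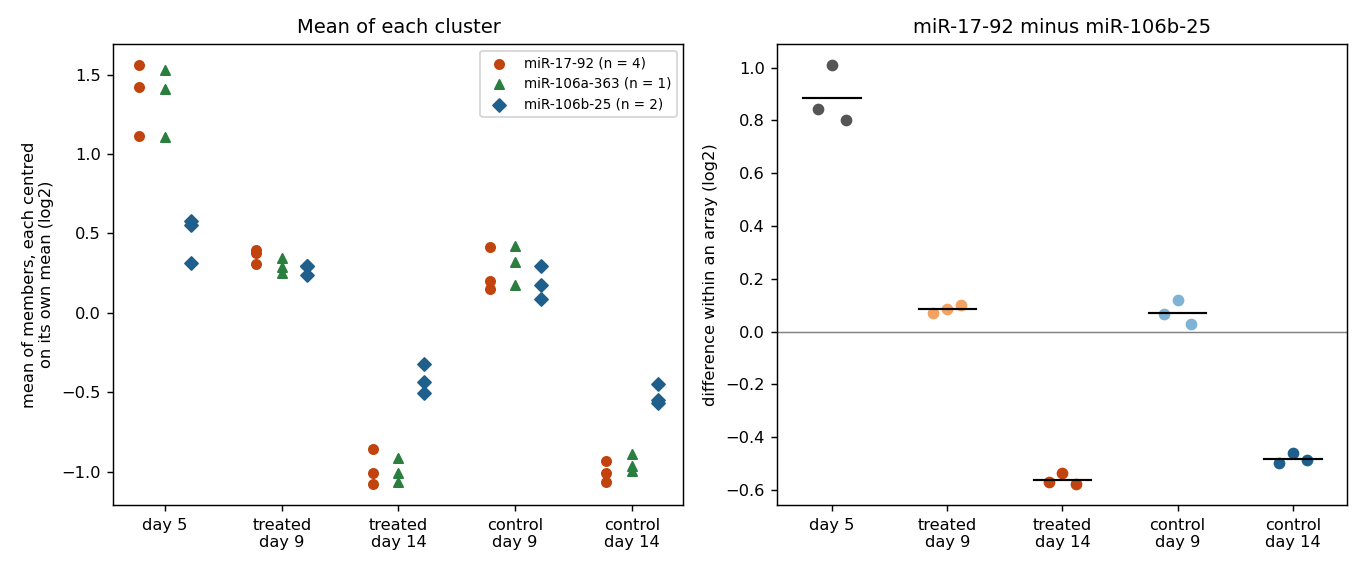
Left, log2 signal by array of each cluster, as the mean of its members after each was centred on its own mean: miR-17-92 (4 members), miR-106a-363 (miR-20b-5p) and miR-106b-25 (miR-106b-5p and miR-93-5p). Right, the miR-17-92 mean minus the miR-106b-25 mean within each array, with bars for group means, which goes from 0.89 at day 5 to -0.56 in treated and -0.48 in control cells at day 14.

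Each member was measured with at least 2 probes, and for 7 members a pair of probes was above background on all 15 arrays. In both full courses the probes had the same sign for 7 of 7, with gaps of 0.02 to 0.18 in treated and 0.02 to 0.28 in control cells. For treated against control at day 9 the sign was the same for 4 of 7. Of the probes for miR-18b-5p only 1 was above background on more than 3 arrays.

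The other strands of these clusters and the miR-92 seed family, 20 mature miRNAs, had 12 above background on any array, 8 on none and 9 tested. All 9 tested fell from day 5 to day 14 in each arm, where 24.8% (treated) and 34.3% (control) of all tested miRNAs were called lower. The medians were -1.42 in treated and -1.64 in control cells. miR-18a-3p and miR-18b-3p entered the tests through day 5 alone, so their falls were favoured by the filter for detection. The treated median is the value of miR-18a-3p, whose day 14 mean lies at the floor. miR-363-3p, at the end of the X-linked cluster, differed by -3.91 and -3.50, and in treated cells at day 14 it was above background on 1 of 3 arrays. Its mean there lies at the floor, which sets the size of the treated difference (-5.48 to -1.89 over the alternatives). miR-92a-3p, from the main and the X-linked cluster, changed by -2.37 and -1.82. The star (passenger) strands miR-106b-3p and miR-17-3p changed by -1.84 and -1.60 in treated and by -2.20 and -1.79 in control cells.

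miR-25-3p, the third miRNA of the Mcm7 locus, changed by -1.19 and -1.41. The star strands miR-18a-3p, miR-18b-3p and miR-20a-3p were not well above background on any day 14 array, and had been at least 2.67-fold, 2.49-fold and 2.46-fold higher at day 5 than in treated cells. Between treated and control cells, 3 of the 9 were higher and 1 lower at day 9, and 3 higher and 2 lower at day 14, shares below or near the 55.6% and 53.3% of all tested miRNAs called in either direction. The largest of these was miR-92b-3p at day 14, higher by 1.05 (SE 0.16, limma adjusted p = 9.85e-05). With normexp it was 0.30 (adjusted p = 0.16), and with a floor 4 times higher both groups lay at the floor.

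Outside the members, the miRNAs whose pattern was most like the mean of the 8 detected members, by Pearson correlation over 15 arrays, were miR-17-3p (0.982), miR-363-3p (0.978), miR-25-3p (0.956), miR-106b-3p (0.954) and miR-92a-3p (0.949). All 5 are products of the same 3 clusters. The lowest correlations were those of let-7b-5p (-0.974), let-7d-5p (-0.970), miR-125a-5p (-0.963), miR-344b-3p (-0.959) and let-7e-5p (-0.955). The let-7 miRNAs are known to accumulate as stem cells differentiate, and the 3 named here were above background on 12 of the 15 arrays. miR-125a-5p, above background on all 15, differed by 2.59 from day 5 to day 14 in treated and by 2.66 in control cells.

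Markers of cell types moved over the same days. Of 11 miRNAs of the pluripotent list, the miR-290 and miR-302 clusters, 8 were above background on any array. From day 5 to day 9, 21.2% of all tested miRNAs were called lower in treated and 35.0% in control cells. All 7 tested of the pluripotent list fell in that step in each arm (median -2.18 in both). Of these, miR-302b-3p and miR-294-3p, above background on 3 and 4 arrays, entered the tests through day 5 alone. Their falls were therefore favoured by the filter for detection and add no support to the count. The treated median is the value of miR-302b-3p, whose day 9 mean lies at the floor. Their summed scaled signal (linear, over miRNAs above background) ranged from 2.32 to 3.35 at day 5, from 0.433 to 0.677 in treated and 0.405 to 0.477 in control cells at day 9, and from 0.234 to 0.347 and 0.243 to 0.262 at day 14. From day 5 to day 14, 144 of all 306 miRNAs were called higher in treated and 105 in control cells. All 7 neuronal and neural progenitor miRNAs, such as miR-124-3p and miR-9-5p, were tested and rose over that course in each arm. For miR-138-5p, above background on 6 arrays, the day 5 and day 9 means lay at the floor. It entered the tests through day 14, so its rise was favoured by the filter for detection. The day 5 mean of miR-137-3p (-4.06) was near the floor, which limits the size of its rise. The sum over the 7 ranged from 4.27 to 4.67 at day 5, from 8.37 to 8.75 in treated and 14.1 to 15.7 in control cells at day 9, and from 16.2 to 18.9 and 24.7 to 29.2 at day 14.

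In treated against control cells 5 of the 7 neuronal miRNAs were lower at day 9 and 6 of 7 at day 14, where 46 and 44 of all 306 miRNAs were called lower. At each day 1 of the 7 was higher, miR-218-5p (0.90 and 1.27). The glial sum (2 miRNAs) ranged from 1.56 to 5.01 over all groups. At day 9 it was 4.73 to 5.01 in treated and 1.73 to 2.11 in control cells, and at day 14 2.25 to 2.94 and 1.56 to 1.62. Most of this sum came from miR-219-5p, with a day 5 mean of 1.68 (log2) against -3.58 for miR-338-3p. Both were higher in treated cells at day 9. At day 14 they went opposite ways, miR-219-5p at 1.32 in treated and 0.54 in control cells, and miR-338-3p at -3.31 and -2.90. The mesenchymal sum (6 miRNAs, of which 3 were above background on no array) ranged from 0.465 to 1.77. It was 1.51 to 1.77 in treated and 0.689 to 0.757 in control cells at day 9, and 0.965 to 1.11 and 0.552 to 0.609 at day 14. This sum came mostly from 1 miRNA, miR-21-5p, with a treated day 9 mean of 0.59 (log2). There miR-199a-3p and miR-199a-5p were at -3.54 and -4.05. At day 5 and in control cells both lay at the floor. In the endoderm list miR-375-3p was above background and in treated cells only, miR-122-5p, miR-192-5p and miR-194-5p were on no array, and the 4 blood and endothelial miRNAs on the array were on no array either. The part of these cell types in the falls of the miR-17, miR-18 and miR-19 families was not tested. The arrays measure no messenger RNA, so the dopaminergic identity of the treated cells was not checked here.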

How the data were processed

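RNA from 15 samples was hybridised to 1-colour (Cy3) Agilent mouse miRNA arrays. Per the file headers, the authors' scanner tables give spot intensity from Feature Extraction 11.0.1.1, background-subtracted and not normalized between arrays, and flags of another kind (above background, saturated, outlier). The deposited table of values, also intensity, served as an alternative. In 14 columns 73.4% to 83.7% of the probes equal the scanner mean within 0.1%, its column medians were -0.0248 to 0.697, and the column of treated day 14 replicate 2 repeats replicate 1 (86.0% of probes) and was counted once. Its direction and scale are those of the signal, with no centring found. The submitters' processing notes name limma 3.20.9.

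Spots that were not outliers were averaged per probe, scaled to an array-wide 75th percentile (of the 353 probes detected on every array), bounded below at a floor of -4.27 and log2-transformed. Outlier spots were 3.88% to 5.09% of an array. The brightest probe stood for a miRNA. Of 1122 miRNAs, 306 were tested: those detected on each array of 1 or more groups, a probe being detected with at least 50% of its spots above background. Limma 3.58.1 (R 4.3.3, data.table at version 1.17.8, jsonlite 2.0.0) fitted the 5 groups together with 10 residual and 3.06 prior degrees of freedom; p-values are two-sided, adjusted by Benjamini-Hochberg over the 306, and called below 0.05. The script was tested on simulated data. The number of arrays limits the precision, and near the floor so does the background. Where a group had no array above background, folds are bounds.

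The members, marker and partner lists and the rule for named miRNAs (all members, up to 4 called partners with the largest change per comparison, the 5 most and 5 least alike miRNAs) were chosen with earlier results of these data known. No sign of pairing by replicate number was seen. Same-numbered samples of different groups had deviations correlated from -0.57 to 0.53 (median 0.02), and differently numbered ones from -0.44 to 0.57 (median 0.01). This cannot show that same-numbered samples were unrelated. Alternatives covered scaling, background, floor, filter, probe choice, slide, replicate block, the deposited table, leaving out each array and, added after seeing the data, the scanner software's total gene signal. The scanner tables hold no mean spot signal, so normexp was run on median signals with an offset of 50. Figures were drawn with matplotlib 3.10.9, numpy 2.4.6 and pandas 2.3.3 in Python 3.11.15.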

Additional observations from a re-analysis of the deposited data

Results flagged for a closer look

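The effect of the morphogens changed between day 9 and day 14, by limma's interaction test, for 3 of the 9 tested partner miRNAs (other cluster strands and the miR-92 seed family) and for 0 of the 9 members. This share is near that over all tested miRNAs, of which 32.7% were called, so the count says nothing particular about the partners.

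miR-92b-3p, which shares the miR-92 seed but lies in none of the 3 clusters, changed by 0.98 (SE 0.22, adjusted p = 0.00486). Treated and control were at -2.32 ± 0.14 and -2.38 ± 0.12 (SD, n = 3 each) at day 9, and at -2.40 ± 0.08 and -3.44 ± 0.07 at day 14. It was called in 26 of 28 alternatives, 1.03 with slide as a block (adjusted p = 0.00869) among them, and not with normexp (0.25, adjusted p = 0.596) or a floor 4 times higher (-0.011, adjusted p = 1).

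miR-363-3p changed by -0.34 (SE 0.11, adjusted p = 0.0237), from a difference of -0.07 at day 9 to -0.41 at day 14, where the treated mean lies at the floor. It was called in 16 of 27 alternatives. The call ended with normexp (-0.10, adjusted p = 0.669), quantile scaling (-0.10, adjusted p = 0.508), the mean of all probes (-0.13, adjusted p = 0.318), no filter (adjusted p = 0.0619) and the deposited table (adjusted p = 0.09). It also ended without treated day 14 replicate 1 or 2 (adjusted p = 0.056 each) or control day 14 replicate 3 (adjusted p = 0.0747), and its sign turned in 3 others.

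miR-20a-3p changed by -0.38 (SE 0.14, adjusted p = 0.0454), from a difference of 0.38 at day 9 to a day 14 at which both groups lie at the floor. This call was kept in 4 of 27 alternatives. It ended with slide as a block (adjusted p = 0.0758), the replicate block (adjusted p = 0.056), the deposited table (adjusted p = 0.0787) and no filter (adjusted p = 0.191), and without any 1 array of treated day 14, control day 9 or control day 14, treated day 9 replicate 2 or 3, or day 5 replicate 1 (adjusted p from 0.052 to 0.0941). Other losses came with median scaling (-0.17, adjusted p = 0.583), normexp (-0.13, adjusted p = 0.669) and the mean of all probes (-0.11, adjusted p = 0.29). With total gene signal the change was -0.61 (adjusted p = 0.0825), and with a floor 4 times higher it was 0. The all-probe percentile and quantile scaling turned its sign (0.14 and 0.15).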

How the results depend on the processing

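The fall of the members from day 5 to day 14 was called in 511 of 511 recomputed values over both arms (-3.12 to -0.40), and the falls from day 9 to day 14 kept their calls under every alternative run. The 511 include values of miR-18b-5p, which entered the main tests through day 5 alone. With the replicate block 9 members were called in each full course, 8 in each step, and 1 at day 9, 1 at day 14 and 0 in the interaction between arms; it changed no member's call. The first step changed for single members: with the all-probe percentile miR-106b-5p was called lower in treated cells, and miR-93-5p and miR-20a-5p were not called in control cells; with normexp miR-93-5p was not called in treated cells.

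Members called for treated against control at day 9 numbered 7 with the all-probe percentile (all lower), 2 with the mean of all probes, and 0 with median scaling, normexp, slide as a block or no filter. Quantile scaling left 1, a different one (miR-106b-5p, lower). At day 14 they numbered 4 with the all-probe percentile (all lower), 2 with total gene signal (miR-106b-5p at -0.30 and miR-19b-3p at -0.37, both lower), 1 with median scaling (miR-19b-3p at -0.38, lower), and 0 with quantile scaling, normexp, slide as a block, slide 2 alone, no filter or the deposited table. Without a filter more miRNAs enter the adjustment; for the others the cause was not tested. Leaving out 1 array gave 0 to 2 at day 9 and 0 to 1 at day 14, 8 to 9 in the first steps, 8 to 8 in the second, 9 to 9 in the full courses and 0 to 0 for the interaction.

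The all-probe percentile turned the sign at day 9 of miR-17-5p (-0.23), miR-20a-5p (-0.57), miR-93-5p (-0.40), miR-19a-3p (-0.53), miR-19b-3p (-0.59), miR-25-3p (-0.24), miR-20a-3p (-0.14) and miR-106b-3p (-0.22), at day 14 of miR-93-5p (-0.14) and miR-106b-3p (-0.017), and in the interaction of miR-20a-3p (0.14) and miR-363-3p (0.065). Quantile scaling did so for miR-20a-3p (-0.15 at day 9, 0.15 in the interaction) and miR-106b-3p (-0.14 at day 9, -0.030 at day 14), median scaling for miR-363-3p (0.022, interaction), normexp for miR-106b-3p (-0.045, day 14), and a floor 4 times higher for miR-92b-3p (-0.011) and miR-363-3p (0.043) in the interaction; the cause was not tested. Members near the floor, miR-18b-5p above all, are limited by background as well as by the number of arrays.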
